A study of Homo sapiens with 12 samples.

Results

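RNA pulled down with an antibody against N6-methyladenosine (m6A) from HepG2 cells given toosendanin was compared, gene by gene, with the same kind of RNA from control HepG2 cells. Genes were taken from the authors' deposited m6A table if their regions carried a single gene label and held at least 100 immunoprecipitation (IP) reads over both conditions. This left 11332 of 12491 genes, and the other 1159 had fewer reads. For each gene the reads of all its regions were summed and divided by the total of the column, which gives its share of the IP pool in rpm, reads per 1000000 reads of the column. The ratio of the toosendanin share to the control share is given on the log2 scale, so that 1 is a share 2-fold higher and -1 a share 2-fold lower. The input columns do not enter this ratio and are set beside it.

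HepG2 is an established cell line of human hepatocellular carcinoma origin per the labels, and toosendanin is a bitter triterpenoid of Melia trees used in traditional medicine. The control group and the toosendanin group each had 3 IP and 3 input libraries, 12 in all, and the labels give the line and the treatment but no dose, no duration and no vehicle. The deposited table gives 1 sum over the libraries of a condition, so no spread between libraries could be computed and no test between conditions was possible. Every interval printed is a 95% counting interval and covers counting error only. A gene is said to have gained or lost share only where its ratio was at least 2-fold.

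The m6A mark is a methyl group on the base adenosine, set on nascent mRNA by a writer complex built on METTL3 and METTL14, removed by the erasers FTO and ALKBH5, and bound by readers such as the YTH proteins. It lies mostly in long internal exons and near stop codons and is known to speed mRNA decay. The antibody takes more RNA from a transcript when the transcript is more abundant as well as when more of its copies are methylated. A share of the IP pool alone cannot tell these apart.

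The regions held 42316089 reads in control IP, 29094328 in toosendanin IP, 34131862 in control input and 24253006 in toosendanin input. The 12 hepatocyte markers were all measured and held 4.48% of the control IP pool and 4.49% of the toosendanin IP pool, with 0 of them past 2-fold. None of 6 fibroblast and 0 of 5 endothelial markers reached 100 IP reads. Among the blood and immune markers, CD68, a lysosomal glycoprotein of macrophages, gained share, from 1229 to 2236 reads (log2 ratio 1.40), and LYZ, lysozyme, was at -0.28. PTPRC, CD3E, CD14, HBB and HBA1 stayed under 100 reads or had no region. Of 8 cholangiocyte markers 6 were measured, and SPP1, which encodes osteopontin, lost share, from 225 to 87.8 rpm (log2 ratio -1.36). At the read limit, 9 genes had exactly 100 IP reads, of which 24 to 84 came from control, and 13 genes had 99, of which 35 to 86 came from control.

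Most of the IP pool kept its makeup, and a small set of transcripts moved far. Of the 11332 genes, 10589 (93.4%) stayed within 2-fold, 361 gained share (3.19%) and 382 lost share (3.37%). The log2 ratio had a median of 0.03, quartiles of -0.24 and 0.29, and 5th and 95th percentiles of -0.80 and 0.84. Genes that gained share went from 0.803% to 2.13% of the pool, and genes that lost share from 2.31% to 0.861%. They were also thinly counted, with a median of 581 and 705.5 IP reads against 1789 for genes within 2-fold. In all, 10.8% of the pool changed hands between genes, counted as the mean of the share summed over gains and over losses. The same measure gave 9.89% for the input pool. Among the 10201 genes that RefSeq lists as protein coding, 318 gained and 342 lost share, and among 539 long noncoding RNAs the counts were 21 and 23.

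**Figure D1:**
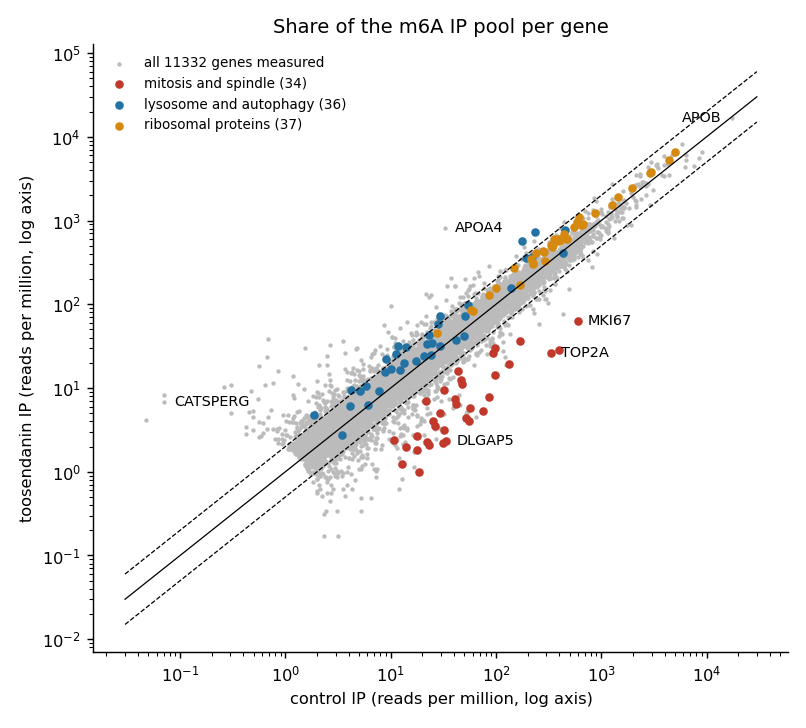
Share of the IP pool per gene in rpm, control on the x axis and toosendanin on the y axis, both log axes; each point is 1 gene, the solid line marks equal shares and the dashed lines 2-fold. The 34 mitosis genes all lie under the lower dashed line, the 37 ribosomal protein genes between the lines, and APOA4 far above the upper line.

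Mitosis transcripts made up most of the largest losses in ratio among genes with at least 1000 IP reads. All 34 measured genes of a list of 36 on mitosis and the spindle lost share, against 3.37% of all genes, and the list shrank from 0.283% to 0.0377% of the IP pool. Its median log2 ratio was -2.87, against 0.03 over all genes measured. The list was chosen with these results known, so its count is a description and no independent support of the direction. CDC25C, a phosphatase of mitotic entry that is not on the list, was level as a sum and overlaps another gene. With that minimum, the 12 largest losses were DLGAP5, NDC80, HJURP, ASPM, CENPF, KIF4A, TOP2A, HMMR, NUF2, CENPE, HMMR-AS1 and CIT. They spanned log2 ratios from -3.85 to -3.42.

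Kinetochore and centromere transcripts were among these losses, the largest of which was that of the spindle gene DLGAP5. DLGAP5, a microtubule-binding spindle protein, had 1430 IP reads in control and 68 after toosendanin, a share 14.5-fold lower (log2 ratio -3.85, interval -4.23 to -3.50). NDC80, which couples the kinetochore to microtubules, went from 1334 to 64 reads (-3.84). HJURP, the chaperone that loads the centromeric histone, had 2705 reads in control and 130 after toosendanin (-3.84). CENPF, a large kinetochore protein, went from 16743 to 836 reads (-3.78, interval -3.89 to -3.68). With 396 rpm in control and 28.7 rpm after toosendanin, CENPF was among the best counted genes of the set, and its interval was narrow. CENPE, the kinetochore motor, fell from 86.5 to 7.80 rpm, and NUF2, a partner of NDC80, from 23.3 to 2.10 rpm (both -3.47).

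Spindle, chromosome and cytokinesis factors lost share to a like extent. ASPM, a spindle pole protein, went from 3199 to 154 reads (-3.84), and the chromokinesin KIF4A from 2342 to 118 reads (-3.77). TOP2A, the topoisomerase that untangles sister chromatids, dropped from 329 to 26.0 rpm, counted with 13936 and 756 reads (-3.66). MKI67, the coat protein of mitotic chromosomes used as a proliferation marker, held the most reads of the list, 25289 in control and 1826 after toosendanin (-3.25). KIF20A, a cytokinesis motor whose RefSeq span overlaps CDC23, had the lowest ratio of the list, -4.23, from 790 and 29 reads. Cyclin A2, CCNA2, had the highest ratio of the list, with 1830 and 463 reads (-1.44), but 4 of its 6 regions were between -2.86 and -2.51, and it was listed at -3.25 with a standard error of 0.23 in the authors' deposited table. HMMR, a spindle assembly factor, went from 2184 to 126 reads (-3.58), and its antisense label HMMR-AS1 from 1141 to 71 (-3.47). These labels overlap in RefSeq. In the authors' deposited table of expression, HMMR had a mean normalized count of 571 and HMMR-AS1 of 1.27, so the region reads under the antisense label are not taken as a separate loss. Over all genes measured, the lowest ratio was that of IQGAP3, a scaffold protein of the cytoskeleton, with 512 and 18 reads (-4.29, interval -5.06 to -3.61).

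The promoters of the mitosis genes were set beside those of other genes for short sequence strings. The list was chosen by function with these results known. A string common in mitotic genes therefore describes the list and is no support of the losses. Promoters of RefSeq (GRCh38.p14) were searched over 300 bases, 250 before and 50 after the first listed start, on both strands, for 8 strings. One was TTTGAA, the core of the cell cycle homology region through which many mitotic genes are repressed in resting cells, and another CCAAT, the box bound by NF-Y. Of the 34 mitosis genes 30 had a promoter in the table, and 20 of these (66.7%) held TTTGAA, against 9.77% of 8885 genes measured and 15.4% of all 27305 promoters. Genes that lost share held it in 30.6% of 297 promoters (91) and genes that gained share in 9.35% of 246. The 91 include the 20 of the mitosis list, so these percentages are not separate. CCAAT stood in 76.7% of the mitosis promoters, 53.5% of the promoters of genes that lost share, 26.4% of those that gained and 37.3% of those measured. It was also common in lists with few or no such losses, in 82.4% of 17 promoters of cholesterol synthesis, where 0 genes lost share, and 65.5% of 29 of the endoplasmic reticulum and integrated stress list, where 1 did. The related string TTTAAA stood in 40% of the mitosis promoters and 7.37% of those measured. The E2F-like string TTTCGCGC stood in 3.33% and 1.02%, and CCTTTT in 16.7% and 16.4%. Printed here are the 120 bases before the start, on the gene's strand, for the 4 largest of the losses named above that hold TTTGAA in that stretch. Capitals mark TTTGAA or its reverse complement TTCAAA, and CCAAT or its reverse complement ATTGG. DLGAP5 lies at chr14:55191586-55191705 (minus strand), ASPM at chr1:197146670-197146789 (minus), KIF4A at chrX:70289984-70290103 (plus) and HMMR at chr5:163460512-163460631 (plus).
DLGAP5: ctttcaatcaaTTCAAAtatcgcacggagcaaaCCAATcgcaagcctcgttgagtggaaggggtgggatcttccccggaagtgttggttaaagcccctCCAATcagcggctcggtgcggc
ASPM: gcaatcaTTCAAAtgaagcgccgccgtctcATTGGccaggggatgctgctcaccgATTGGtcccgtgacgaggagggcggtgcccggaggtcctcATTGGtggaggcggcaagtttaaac
KIF4A: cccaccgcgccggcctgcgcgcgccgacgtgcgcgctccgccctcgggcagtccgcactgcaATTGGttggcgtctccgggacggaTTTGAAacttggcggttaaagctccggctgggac
HMMR: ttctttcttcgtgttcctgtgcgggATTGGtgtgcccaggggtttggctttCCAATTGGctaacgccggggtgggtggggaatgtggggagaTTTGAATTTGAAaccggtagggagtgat
In KIF4A the string begins 34 bases before the start, but in DLGAP5 it begins 109 and in ASPM 113 bases before it. HMMR has 2 copies in a row, with a CCAAT and an ATTGG that overlap. The related string TTTAAA is not marked, and it also stands near the end of the ASPM stretch. A match is a description of the letters and says nothing of binding, and other starts of a gene were not searched.

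DNA replication transcripts were lower too, by less. Of 33 measured genes of 35, 14 lost share, against 3.37% of all genes, and 0 gained it. All 33 had a ratio below 0, where 52.7% of all genes lay above 0, and the median was -0.90. RRM2, the regulated subunit of the enzyme that makes deoxynucleotides, had the lowest ratio, from 1351 to 141 reads (-2.72). CDC45 of the replicative helicase went from 558 to 81 reads (-2.24) and ORC1 of the origin recognition complex from 615 to 132 (-1.68). MCM3, a helicase subunit and the best counted member, went from 12459 to 4201 reads, or 294 to 144 rpm (-1.03). PCNA, the sliding clamp, was at 49.4 and 31.7 rpm (-0.64), and RFC2 of the clamp loader at 8.15 and 7.80 rpm (-0.06), so the members spread widely. Of their 30 promoters, 3.33% held TTTGAA and 63.3% held CCAAT. The E2F-like string TTTCGCGC stood in 4 of them (13.3%), against 1.02% of the promoters of genes measured.

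Losses and gains stood side by side in other lists. Of 24 matrix and adhesion genes measured, CCN2, a matricellular growth factor, was the 1 that lost share, from 5120 to 687 reads (-2.36), and 3 gained it. The glucose transporters SLC2A3 and SLC2A1 went from 1902 to 240 (-2.45) and from 4980 to 1020 reads (-1.75), while ENO2, the neuronal enolase, gained share among the 25 glycolysis and hypoxia genes measured (242 to 350 reads, 1.07). Of 22 Wnt targets and components measured, 6 lost share, against 3.37% of all genes: NKD1, an inhibitor of the pathway (20752 to 4436 reads, -1.69), TNFRSF19 (-1.52), the stem cell receptor LGR5 (-1.40), the antagonist DKK1 (-1.31), the palmitoleate esterase NOTUM (-1.02) and the receptor ligase RNF43 (-1.02). AXIN2, the scaffold of the destruction complex, was at 132 and 106 rpm (-0.32). In the same list the ligand WNT11 gained share, from 28 to 679 reads (5.14, interval 4.60 to 5.74), and so did DKK4 (25 to 78 reads, 2.18).

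**Figure D2:**
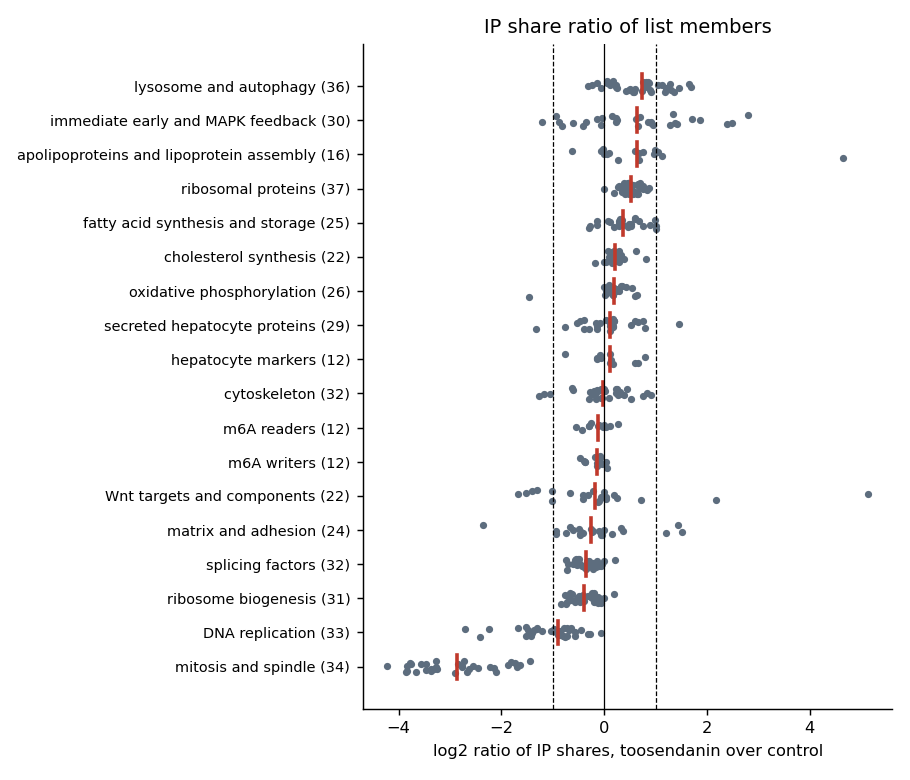
Log2 ratio of the IP share, toosendanin over control, on the x axis; each point is a measured member of the gene list named on the y axis, with the number measured in brackets, red bars are list medians and dashed lines mark 2-fold. The median of the mitosis list lies at -2.87, that of DNA replication at -0.90 and that of lysosome and autophagy at 0.74.

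APOA4, an apolipoprotein, had the second highest ratio among genes with at least 1000 IP reads, and the highest without an overlapping label. Its IP reads went from 1383 to 23791, or from 32.7 to 818 rpm (log2 ratio 4.65, interval 4.57 to 4.72). APOA4 is made mainly by the intestine. The other genes among the 12 largest gains with at least 1000 IP reads were LOC100507412, ALPK3, DNAH17, ZNF114, NUPR1, SLC6A12, SNN, LINC02365, STX3, PCK1 and EGR1. LOC100507412, a noncoding RNA with 29 and 1119 reads (5.81), shares its RefSeq span with 2 other labels, and its value is uncertain for that reason. ALPK3, a kinase of heart muscle, went from 113 to 939 reads (3.60), and ZNF114, a zinc finger protein, from 425 to 2764 (3.24). DNAH17, a dynein heavy chain that overlaps PGS1, went from 150 to 1056 (3.36). NUPR1, a stress-induced chromatin protein, had 362 reads in control and 1663 after toosendanin (2.74). PCK1, which encodes the first committed enzyme of gluconeogenesis, went from 24.2 to 129 rpm (2.42), and the vesicle fusion protein STX3 from 37.0 to 207 rpm (2.48).

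The highest ratios of all rest on 2 or 3 control reads. TREM1, a receptor of myeloid cells, had 3 and 241 reads, a log2 ratio of 6.87 with an interval from 5.30 to 9.16. CATSPERG, part of a sperm calcium channel, had 3 and 200 reads (6.60, interval 5.03 to 8.89), and ARHGEF4, a guanine nucleotide exchange factor, 2 and 122 reads (6.47, interval 4.59 to 9.53). BIRC7, an inhibitor of apoptosis of the livin family, was counted somewhat better, with 11 and 299 reads (5.31, interval 4.44 to 6.32), while the other 24 apoptosis regulators measured stayed within 2-fold. CYP17A1, an enzyme of steroid synthesis, had 36 and 461 reads (4.22). CYP1A1, the enzyme induced through the aryl hydrocarbon receptor, had 89 and 548 (3.16). SULT2A1, which sulfates steroids and bile acids, had 2167 and 5811 reads (1.96) and CYP3A5 315 and 479 (1.15), so that 4 of 18 xenobiotic genes measured gained share, against 3.19% of all genes. One of the 18, UGT2B7, lost it (363 to 96 reads, -1.38).

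Lysosome and autophagy transcripts took a larger share of the pool. Of 36 measured genes of 40, 10 gained share and 0 lost it, against 3.19% of all genes that gained, and the list went from 0.238% to 0.420% of the pool with a median log2 ratio of 0.74. SQSTM1, the autophagy receptor p62, went from 177 to 573 rpm, counted with 7505 and 16664 reads (1.69, interval 1.65 to 1.73), and it overlaps MGAT4B and MRNIP. CTSB, a lysosomal protease, went from 232 to 731 rpm (1.65). FLCN, a regulator of lysosomal nutrient signalling, had 499 and 936 reads (1.45), MAP1LC3B, the membrane mark of autophagosomes, 1252 and 2114 (1.30), and GABARAP of the same family 475 and 739 (1.18). LAMP2, a membrane protein of lysosomes, went from 176 to 277 reads (1.19) and CTSD, an aspartic protease, from 1179 to 1678 (1.05). Of the kinase and lipid kinase subunits that start autophagy, ATG13 was at 0.11, BECN1 at 0.16 and ULK1 at 0.23. ATG7, a conjugation enzyme, had the lowest ratio of the list, -0.32.

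The string CACGTG, the core of the motif bound by TFEB and related factors, stood in 5 of 27 promoters of the lysosome list (18.5%), against 10.4% of those measured and 7.43% of all. It stood in 20% of the mitosis promoters and 44% of the 25 promoters of ribosome biogenesis, lists with negative medians, and so was not particular to the lysosome list. Genes that gained share held it in 14.2% and genes that lost share in 7.41%. The longer form TCACGTGA stood in 3 of the 27 lysosome promoters (11.1%), 3.33% of the mitosis promoters, 0 of those of ribosome biogenesis and 2.08% of all measured genes' promoters. It was not particular to the lysosome list either. It stood in 3 of 22 promoters of translation initiation (13.6%) and in 2 of 9 of the m6A readers (22.2%). A palindrome with 1 more base at each end stood in 0 of the 27 and in 0.855% of those measured.

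A list of immediate early genes, which are transcribed within minutes of a signal, and of feedback genes of MAP kinase signalling went both ways. Of 30 measured, 9 gained share, against 3.19% of all genes, and 1 lost it, against 3.37%, with a list median of 0.64. EGR1, a zinc finger factor, went from 979 to 3528 reads (2.39), FOS from 109 to 422 (2.49), JUN from 7852 to 14106 (1.39) and DUSP1, a phosphatase of MAP kinases, from 469 to 1166 (1.85). KLF4 had the highest ratio, 2.80, from 24 and 115 reads. DUSP6, which dephosphorylates ERK, was the member that lost share (4569 to 1350 reads, -1.22), and SPRY4 and ETV4 were at -0.93 and -0.81. Other MAP kinase phosphatases were higher, with DUSP10 at 1.72 and DUSP5 at 0.62. Among 33 genes of endoplasmic reticulum and integrated stress, NUPR1, ATF3 (1.33), DDIT3 (1.21) and GDF15 (1.15) gained share, and SLC7A11, the cystine transporter, lost it (3132 to 1075 reads), while ATF4 was at -0.07 and the chaperone HSPA5 at -0.07.

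Of 16 apolipoprotein and lipoprotein assembly genes measured, 12 had a ratio above 0, as did 52.7% of all genes, and 3 gained share, against 3.19%. These were APOA4, APOA2 (53072 to 79424 reads, 1.12) and APOC1 (1957 to 2777, 1.05), and APOE was at 887 and 1730 rpm (0.96). ABCA1, a cholesterol exporter, was lowest (-0.62), and APOB, the largest of all single-gene labels, was at 17462 rpm in control and 16742 rpm after toosendanin (-0.06). Among 29 secreted hepatocyte proteins measured, SERPINC1, which encodes antithrombin, gained share (2344 to 4438 reads, 1.46) and HP, haptoglobin, lost it (12358 to 3396, -1.32). Of 27 NRF2 and iron genes measured, 2 gained share, against 3.19% of all genes, and 1 lost it. In this list 16 lay above and 11 below 0, with a median of 0.26. The 2 were TFRC, the transferrin receptor, and FTL, the ferritin light chain (57.0 to 164 rpm, 1.52, and 231 to 567 rpm, 1.29).

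Counted in rpm, many of the largest movements among single-gene labels were ratios within 2-fold in very abundant transcripts. The 10 largest gains of such labels added 1.63 percentage points of the pool out of 11.2 gained in all, and the 10 largest losses took 1.65 out of 10.3. A wider loss lay outside the gene comparison, in the label IGF2 with INS-IGF2, from 23369 to 13982 rpm. FGA, the fibrinogen alpha chain, went from 7617 to 4475 rpm (-0.77), NCL, the nucleolar protein nucleolin, from 8483 to 5523 (-0.62), and FN1, fibronectin, from 9090 to 6629 (-0.46). The kinase MAP4K4 went from 2886 to 1528 rpm (-0.92). PNN, a splicing-associated desmosome protein, lost share, from 1914 to 895 rpm (-1.10), and PTMA, prothymosin alpha, from 1760 to 878. SPTBN1, a spectrin, went from 2962 to 4990 (0.75), and albumin, ALB, from 2749 to 4327 (0.65). APOA1, the main protein of high density lipoprotein, went from 3902 to 5931 rpm (0.60) and the regions under its overlapping label APOA1-AS from 2143 to 3452 (0.69). The nuclear RNA MALAT1 and its antisense label TALAM1 had nearly the same counts, 143523 and 139491 reads in control (0.49 and 0.48). In the authors' deposited table, the mean normalized count was 97047 for APOA1 and 1.32 for APOA1-AS, and 69167 for MALAT1 and 182 for TALAM1, so the antisense labels are not taken as separate gains. The reads of PTMA and EEF1A1 may be shared with near-identical copies.

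**Figure D3:**
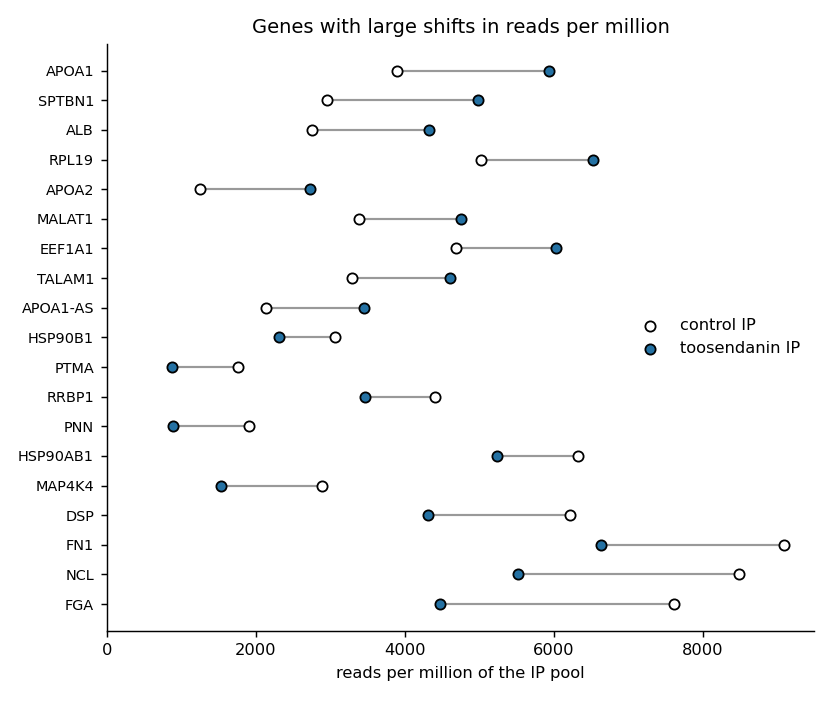
Genes with large gains (9 genes) and the 10 genes with the largest losses in rpm of the IP pool (x axis); open circles are control IP and filled circles toosendanin IP. FGA, NCL and FN1 show the widest losses among these single-gene labels, and among the gains shown APOA1 and SPTBN1 are the widest.

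Ribosomal protein transcripts were higher by a small step per gene. Of 37 ribosomal protein genes measured, 0 passed 2-fold and 36 had a ratio above 0, as did 52.7% of all genes. Their median log2 ratio was 0.52, and together they went from 3.05% to 4.06% of the pool. RPL34 had the highest ratio (6280 to 7944 reads, 0.88), followed by RPL27 (26094 to 32021, 0.84), and RPS2 was level (170 rpm in both, -0.00). These genes have many processed copies in the genome, so part of their reads is uncertain. Factors of ribosome assembly lay on the other side: 30 of 31 had a ratio below 0, with a median of -0.40, and the list went from 2.03% to 1.57% of the pool. DKC1, which modifies ribosomal RNA, was at 452 and 267 rpm (-0.76) and NOP58 at 199 and 119 (-0.75), but NPM1, nucleophosmin, at 6379 and 6116 rpm (-0.06). Of 32 splicing factors, 31 had a ratio below 0, with a median of -0.36 and 0 past 2-fold. RBM25 was lowest (-0.75). Other abundant lists were evenly divided: translation initiation had 14 genes above and 14 below 0, with a median of -0.01, and cytoskeleton 14 above and 18 below, with a median of -0.03.

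The transcripts of the m6A machinery itself stayed within 2-fold, as did 93.4% of all genes measured. The median log2 ratio of all genes measured was 0.03. The 12 writer genes had a median log2 ratio of -0.14, from VIRMA, the scaffold of the complex (169 and 121 rpm, -0.47), to METTL5, which methylates ribosomal RNA (31.6 and 33.0 rpm, 0.06). METTL3, the catalytic subunit, was at 46.5 and 42.1 rpm (-0.15, interval -0.25 to -0.04) and overlaps TOX4, and METTL14, its partner, was at 86.5 and 82.2 rpm (-0.07, interval -0.15 to 0.00). WTAP, the adaptor of the complex, was at 0.03 and ZC3H13, which holds it in the nucleus, at -0.37. RBM15 and RBM15B, which guide the complex to RNA, were at -0.38 and -0.14, the ligase-like CBLL1 at -0.19, METTL16, which methylates U6 RNA, at -0.39, the cap methylase PCIF1 at -0.08 and ZCCHC4, which methylates ribosomal RNA, at -0.04. The erasers FTO and ALKBH5 were at 0.22 and 0.02. Among 12 readers measured of 14, YTHDF1 was highest (80.2 and 97.0 rpm, 0.27) and HNRNPC lowest (801 and 547 rpm, -0.55). YTHDF2, which recruits the deadenylase to methylated mRNA, was at -0.01, YTHDF3 at 0.03 and YTHDC2 at -0.12. IGF2BP1, IGF2BP2 and IGF2BP3, readers that stabilise mRNA, were at -0.25, -0.10 and -0.02. The other RNA-binding readers were RBMX (-0.44), HNRNPA2B1 (-0.30), FMR1 (-0.29) and ELAVL1 (0.11).

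The IP pool and the input pool shifted almost alike. Over 9874 genes with at least 200 reads in IP and in input, the log2 ratio of IP shares and that of input shares had a Pearson r of 0.945 and a Spearman rho of 0.886 across genes, which are not independent replicates. Both ratios compare the same pair of conditions, so they share any difference between the cultures. The difference between both ratios had a standard deviation across genes of 0.18, where the ratios themselves had 0.56 for IP and 0.55 for input, and it lay between -0.5 and 0.5 for 98.4% of genes. Of 253 genes that gained share and could be compared, 192 were past 2-fold in input too and 0 had an input ratio of the other sign. Of 276 that lost share, 233 were past 2-fold in input and 1 had the other sign, GOLGA6L17P. For APOA4 the input ratio was 4.51, beside 4.65 in IP, for DLGAP5 -4.11 beside -3.85, and for TOP2A -3.75 beside -3.66. In the authors' deposited table of expression, a DESeq2 result, the log2 fold change was 4.44 with a standard error of 0.06 for APOA4, -4.55 with 0.23 for DLGAP5 and -3.76 with 0.07 for TOP2A. MKI67 stood at -2.26 with a standard error of 0.09 in the authors' deposited table, against -3.25 in the IP pool and -3.38 in input.

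**Figure D4:**
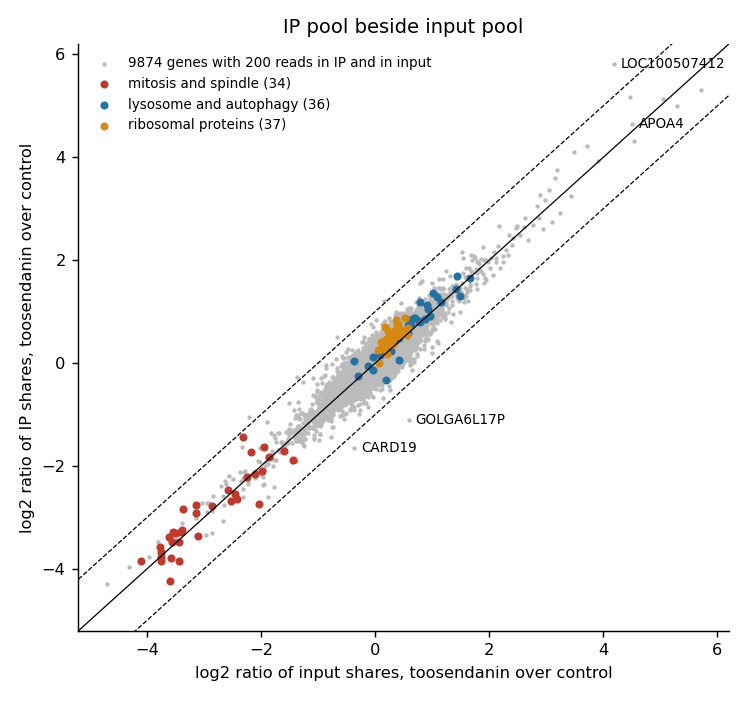
Log2 ratio of shares, toosendanin over control, in input (x axis) and in IP (y axis) for 9874 genes, 1 point per gene; the solid line marks equal ratios and the dashed lines a difference of 1. Points follow the solid line, with GOLGA6L17P and CARD19 below the lower dashed line and LOC100507412 above the upper one.

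Few genes had an IP ratio that differed from the input ratio by at least 1, and the larger move could lie in either pool. The IP ratio was above the input ratio by at least 1 in 5 genes (0.0506%), LOC100507412 (1.63), EMBP1 (1.17), PNCK (1.16), PRIM1 (1.10) and SPINT1-AS1 (1.05). It was below by at least 1 in 2 genes (0.0203%), GOLGA6L17P (-1.70, interval -2.24 to -1.15) and CARD19 (-1.27, interval -1.73 to -0.82). CARD19, a mitochondrial membrane protein, had 405 IP reads in control and 89 after toosendanin, and 242 and 133 input reads. Its expression was listed at a log2 fold change of 0.05 with a standard error of 0.19 in the authors' deposited table. PRIM1, the catalytic subunit of DNA primase, had 155 and 88 IP reads and 179 and 49 input reads, so its larger fall was in input. The PNCK region with at least 100 IP reads was at -0.92 in IP and -2.06 in input. GOLGA6L17P and EMBP1 are pseudogenes with near-identical copies, and SPINT1-AS1 overlaps SPINT1, so their counts are uncertain. The next genes were MAP4K3-DT, a noncoding RNA (1075 to 463 IP reads, 424 to 333 input reads, difference -0.82), and CCNA2 (difference 0.87, interval 0.59 to 1.14). For the 34 mitosis genes the median difference was 0.06, with 4 intervals above 0 and 3 below. Over all 9874 genes compared with input the median was 0.03, with 1824 intervals above 0 and 798 below.

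A weak common pattern ran through the differences between IP and input. Genes were ordered by their IP over input ratio, pooled over both conditions, and cut into 10 groups of like size. In the lowest group, with a median log2 IP over input of -0.97, the IP ratio was above the input ratio by a median of 0.13, in 77.5% of genes. In the highest group, with a median of 0.87, the difference was -0.07, and 29.0% of genes were above 0. The whole makeup of IP and input also lay closer after toosendanin: they differed by 14.4% of the pool, against 15.8% in control. Ribosomal protein genes, whose median log2 IP over input was -0.94, showed the same sign, with a median difference of 0.21 and 34 of 37 members above 0, as 58.5% of all genes were. RPL27 was at 0.84 in IP and 0.37 in input, and RPL15 at 0.70 and 0.18. The pooled enrichment uses the same counts as the difference, and how much the depth or the yield of the pull-down moves with it was not tested.

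**Figure D5:**
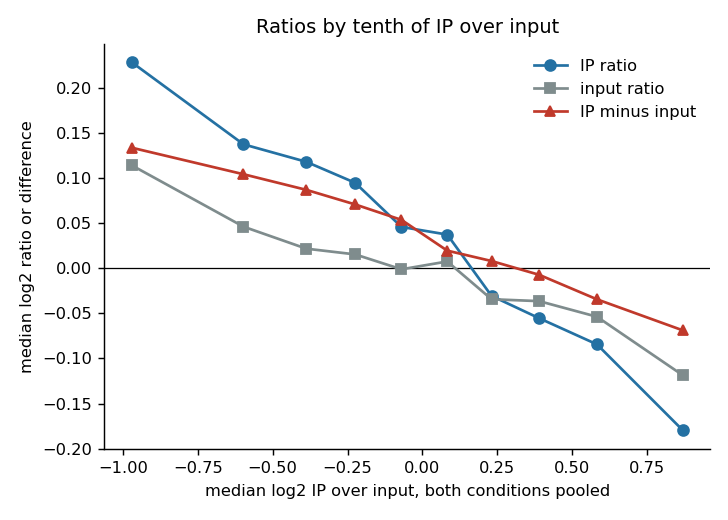
Median log2 ratio of IP shares (circles), of input shares (squares) and their difference (triangles) in 10 groups of genes ordered by log2 IP over input pooled over both conditions (x axis). The difference goes from 0.13 in the least enriched group to -0.07 in the most enriched.

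Regions of a gene mostly moved together. In 5300 genes with at least 3 regions of 100 IP reads, the log2 ratio ranged over a median of 0.49 between regions of a gene, and 90.9% of genes had a range under 1. In 5 genes (0.0943%), AKR1C2, FAAP20, MAFK, PLA2G12A and TMEM184A, 1 region gained and another lost share 2-fold. AKR1C2, a steroid-reducing aldo-keto reductase, had 1 region with 402 IP reads in control and 6 after toosendanin, with 17 and 11 input reads, while its other 6 regions lay between -0.14 and 1.76. The gene sum was at 0.09, and close paralogs make the place of such reads uncertain. GK, glycerol kinase, had 1 region that went from 5 to 98 IP reads, with 19 and 68 in input, while its other 3 regions were between 0.88 and 1.27.

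Several genes with widely ranging regions overlap another gene. CDC25C, the phosphatase that triggers mitotic entry, was level as a sum (1589 and 1090 reads, -0.00). One of its regions, with 1245 and 1068 reads, was at 0.32, and the other 2 were at -3.79 and -3.17. CDC25C overlaps FAM53C, whose sum was at 0.26, and its expression was listed at -4.13 with a standard error of 0.32 in the authors' deposited table. LCORL, a transcription factor linked to body size, lost share as a sum (1562 to 478 reads, -1.17), with 3 regions between -2.94 and -2.58 and 3 between 0.05 and 0.54. It overlaps NCAPG, a condensin subunit at -2.76, and its own expression was listed at 0.26 with a standard error of 0.17 in the authors' deposited table. CCNA2 overlaps EXOSC9, an exosome subunit at -0.72: 4 of its regions were between -2.86 and -2.51, and 2 at -0.83. FAAP20, of the Fanconi core complex, gained share as a sum (1294 to 1859 reads, 1.06) with regions from -1.87 to 1.57. It overlaps PRKCZ (1.75) and was listed at -0.30 with a standard error of 0.15 in the authors' deposited table. The labels of MAFK and TMEM184A overlap and hold regions with nearly the same counts, 489 to 157 and 491 to 156 reads. In all, 2688 of the genes measured overlap another label in RefSeq, and for these a sum can hold reads of the neighbour.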

How the data were processed

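A kit for stranded mRNA sequencing with a unique molecular identifier per cDNA was used, per the labels' protocols. The submitters' processing notes name HISAT2, StringTie and DESeq, with no versions. No source used here gives the genome build, annotation, region caller, strand setting or use of the identifiers in counting. The deposited m6A table holds whole-number read counts per region, which the authors summed within each condition, per the file headers, beside a log2 fold change, a p-value and its adjustment, none of which was used. The authors deposited a DESeq2 result with a mean normalized count (a signal), a log2 fold change, a Wald score and p-values, of which means, fold changes and standard errors are printed. No source used here names the libraries behind it, and no label says whether libraries came from separate cultures.

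Counts were summed per single-gene label and scaled to the column totals; 917 regions with more than 1 label (5.08% of control and 4.15% of toosendanin IP reads) stayed in the totals only. Intervals of the share ratio are exact (Clopper-Pearson) and those of IP minus input a normal approximation on 4 counts. A simulation with known fold changes checked the computation of the ratio and its interval. It drew counts with Poisson error only, so it says nothing of the spread between libraries. Labels were matched to RefSeq for gene class and overlap (10993 of 11332) by symbol, and list members by symbol or an older symbol. The 37 gene lists and the genes compared were chosen with earlier results of these data known. Some genes that the naming rule takes are not reported here. Named genes were the 12 largest gains and losses with at least 1000 IP reads, the 10 largest in rpm, the best counted and most extreme members of each list, the 10 largest differences between IP and input in each direction, all m6A genes, and 6 genes with the widest ranging regions. IQGAP3, TREM1, CATSPERG, ARHGEF4 and other list members printed, and neighbours of overlapping genes, were chosen after their values were seen. Alternatives were other scalings (among them TMM of edgeR 4.0.16 in R 4.3.3), read minimums, thresholds, handling of labels and choices of regions. Scripts ran in Python 3.11.15 with scipy 1.17.1, pandas 2.3.3 and numpy 2.4.6.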

Additional observations from a re-analysis of the deposited data

Results flagged for a closer look

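Regions with more than 1 gene label were not part of the gene comparison. Of 436 such labels with at least 100 IP reads, 17 gained and 7 lost share, with a median log2 ratio of 0.03. Among those with at least 1000 IP reads, 2 gained share and stand out as signal above control outside the gene comparison. One names 5 copies of the ribosomal RNA precursor, RNA45SN1 to RNA45SN5, with 6104 IP reads in control and 11144 after toosendanin (log2 ratio 1.41, interval 1.36 to 1.45) and 1.10 in input. The other, STBD1 with its readthrough FAM47E-STBD1, had 1088 and 1776 reads (log2 ratio 1.247, interval 1.14 to 1.36) and 1.37 in input. STBD1 binds glycogen. The largest such label, IGF2 with INS-IGF2, a fetal growth factor, held 988893 control and 406786 toosendanin IP reads, or 2.34% and 1.40% of the pool (-0.74), and was at -0.78 in input. ARHGAP11A with ARHGAP11A-SCG5 had 2522 and 302 reads (-2.52), beside 754 and 78 (-2.73) for ARHGAP11A alone, a mitosis list member.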

How the results depend on the processing

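No paired analysis was possible because the table holds sums over libraries and its columns carry no replicate numbers; leaving out single libraries was not possible for the same reason. The counts of 361 gained and 382 lost genes stayed within 1.5 times under the other scalings, at least 20 reads, whole counting of shared labels, the top region alone and an added 0.5. They were 139 and 161 with at least 1000 IP reads (7163 genes), 70 and 77 in regions with IP over input above 2 (1628 genes), 227 and 253 with the whole interval past 2-fold, 1125 and 947 at 1.5-fold, and 73 and 104 at 4-fold. The share of the pool that moved, 10.8%, was 10.7% with median-of-ratios scaling, 10.6% with TMM, 11.3% scaled to single-label regions, 12.2% without the 20 most read genes in the total, 10.8% with 20 and 10.4% with 1000 reads, 12.4% with shared labels given whole, 8.08% with the top region alone and 8.92% in enriched regions. It was 8.55% without overlapping genes, an alternative chosen after seeing the data. Also chosen so, genes with IP above input by 1 numbered 1 with the top region alone, and with 1000 reads in both pools 0 were above and 0 below. LCORL turned to 0.47 in enriched regions, where 1 of its regions remained. Few lists and named genes could be evaluated in these regions. There 5 list medians moved beyond counting error and 3 did not, and of named genes 22 moved, 1 reversed and 4 stayed. With the top region alone 5 list medians moved and 28 stayed, and 72 named genes moved and 175 stayed. Under TMM scaling 1 list median moved and 33 stayed, and 51 named genes moved and 200 stayed. Median-of-ratios and TMM scaling moved every log2 ratio by -0.02.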

Other observations

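Over all genes measured, 3.19% gained and 3.37% lost share, and the counts in this paragraph stand beside these. Small nucleolar RNA labels were few, 6 in all, and the pair of U3 copies SNORD3C and SNORD3D gained share, from 186 to 500 reads (log2 ratio 1.97) and from 292 to 761 (1.92). These copies are near-identical, so their reads cannot be told apart. SNORD57, which lies within NOP56, lost share (354 to 119 reads, -1.03). Among 12 long noncoding RNAs measured of a list of 20, NEAT1, the scaffold of paraspeckles, gained share (191 to 408 rpm, 1.10), while NORAD was level at 805 rpm in both (0.00). Of 24 matrix and adhesion genes measured, CDH1, E-cadherin, TIMP1 and TIMP2, inhibitors of metalloproteinases, gained share (1.43, 1.21 and 1.51). Among 26 liver transcription factors, CEBPA gained share (693 to 972 reads, 1.03) and NR2F1 lost it (5373 to 1676, -1.14), and HNF4A was at 395 and 433 rpm (0.13). Of 32 cytoskeleton genes, TAGLN (-1.28), STMN1 (-1.18), which destabilises microtubules, and TUBA1B (-1.05) lost share. Of 20 bile acid genes listed 12 were measured. BAAT, which conjugates bile acids, and NR0B2, a nuclear receptor without a DNA-binding domain, gained share (1.67 and 1.30). CYP7A1, the rate-limiting enzyme of bile acid synthesis, was at 7.68 and 4.67 rpm (-0.72). The 25 measured p53 target genes all stayed within 2-fold, with CDKN1A at 0.48 and MDM2 at 0.06. Of 16 interferon genes measured of a list of 31, OAS1 (1.51) and ISG15 (1.43) gained share. Of 26 genes of oxidative phosphorylation NDUFS7 lost share (-1.47) while 24 lay above 0, as did 52.7% of all genes. NDUFS7 was listed at 0.05 with a standard error of 0.13 in the authors' deposited table of expression.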
